A study of Mus musculus with 8 samples.

Results

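Twist1, Prrx1, Snai2, Pdgfra, Pdgfrb, Thy1, Fn1, Postn, Vim and Acta2 are genes commonly used to recognise fibroblasts and other mesenchymal cells, and their content of 5-hydroxymethylcytosine (5hmC) is described here. They were chosen by name, and each was found in the GENCODE M1 annotation of mm9, in which they are 10 of the 22367 protein-coding genes on the nuclear chromosomes. 5hmC is made from 5-methylcytosine by the Tet enzymes, and it was mapped by GLIB-Seq, in which the mark is glucosylated, oxidised with periodate, coupled to biotin and pulled down for sequencing. The study made 1 GLIB-Seq library for each of 6 conditions. These were untreated embryonic stem cells of the E14 line (ESCs), embryonic fibroblasts of C57BL/6 mice (MEFs), brain and liver of C57BL/6 mice aged 8 weeks, and E14 cells transfected with a short hairpin against GFP (shGFP) or against Suz12 (shSuz12), a subunit of Polycomb repressive complex 2. The labels give embryonic day 11 for the MEFs, and the study's methods give a later embryonic day. The transfected cells were selected with puromycin, and which hairpin against Suz12 was used for the library was not named in the labels. Each condition had 1 library, so no spread between replicates can be given and no difference between conditions was tested.

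Mesenchymal cells are the loosely arranged, migratory cells that give rise to connective tissue, and fibroblasts are the form of them that lays down extracellular matrix. Their transcription factors Twist1, Prrx1 and Snai2 act in the embryonic mesenchyme and in the transition of epithelial cells to a mesenchymal form. The platelet-derived growth factor receptors pass on growth and migration signals to these cells, Thy1 sits on their surface, fibronectin and periostin are matrix proteins they secrete, and vimentin and smooth muscle actin belong to their cytoskeleton. Gene expression was not analysed here, so that the activity of the 10 genes in these cells could not be examined. In tissues and cultures, a mark carried by fewer cells cannot be told apart from less of the mark in every cell.

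The sequences at the centre of 7 peaks are examples of the DNA under the peaks of these genes. A peak does not show which of its bases carried the mark, so it need not lie in the window shown. Each is a stretch of 160 bases, written 5′ to 3′ on the strand of its gene, at the centre of the peak with the highest score of that gene in the named library, in the mm9 assembly, with CpG dinucleotides, the sites at which cytosine is methylated and hydroxymethylated, in capitals. The windows lie at chr12:34647705-34647864 (plus strand, 5169 bp downstream of the Twist1 start site and outside the gene), chr1:165228960-165229119 (minus strand, an intron of Prrx1), chr5:75559310-75559469 (plus strand, an intron of Pdgfra), chr1:71674758-71674917 (minus strand, an intron of Fn1), chr3:54205188-54205347 (plus strand, downstream of the Postn gene), chr2:13500204-13500363 (plus strand, within an exon of Vim) and chr19:34329075-34329234 (minus strand, an intron of Acta2).
Twist1 in ESCs: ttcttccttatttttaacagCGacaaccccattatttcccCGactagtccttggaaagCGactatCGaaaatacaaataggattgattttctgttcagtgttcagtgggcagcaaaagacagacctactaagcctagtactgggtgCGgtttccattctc
Prrx1 in MEFs: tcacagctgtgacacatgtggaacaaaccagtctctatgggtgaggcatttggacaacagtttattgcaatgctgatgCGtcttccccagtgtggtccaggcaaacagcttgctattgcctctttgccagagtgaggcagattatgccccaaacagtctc
Pdgfra in MEFs: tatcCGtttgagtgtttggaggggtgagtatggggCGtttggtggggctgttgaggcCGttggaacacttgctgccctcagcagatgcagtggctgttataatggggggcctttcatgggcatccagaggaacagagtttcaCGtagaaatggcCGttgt
Fn1 in liver: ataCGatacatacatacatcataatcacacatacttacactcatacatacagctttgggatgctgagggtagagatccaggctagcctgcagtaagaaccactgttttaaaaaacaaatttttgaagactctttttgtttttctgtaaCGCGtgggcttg
Postn in MEFs: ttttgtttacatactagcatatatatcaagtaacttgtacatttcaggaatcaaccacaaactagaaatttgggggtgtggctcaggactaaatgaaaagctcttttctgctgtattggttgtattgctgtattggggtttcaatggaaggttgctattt
Vim in MEFs: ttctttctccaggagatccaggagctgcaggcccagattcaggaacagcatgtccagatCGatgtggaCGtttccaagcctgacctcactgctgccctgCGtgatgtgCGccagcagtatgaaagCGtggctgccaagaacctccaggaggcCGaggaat
Acta2 in MEFs: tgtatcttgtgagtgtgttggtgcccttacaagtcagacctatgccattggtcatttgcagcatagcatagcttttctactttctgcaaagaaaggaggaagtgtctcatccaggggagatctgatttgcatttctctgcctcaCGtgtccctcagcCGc
The windows held from 0 CpG (Postn) to 6 (Vim), with 5 in Twist1 and Pdgfra, 3 in Fn1, 2 in Acta2 and 1 in Prrx1. The Postn peak itself, over 1567 bp, held 15 CpG, or 0.957 per 100 bp. The Prrx1 peak had 1.31 per 100 bp, the Acta2 peak 1.52, the Vim peak 1.72, the Fn1 peak 1.84, the Pdgfra peak 2.32 and the Twist1 peak 2.49. The mean of the genome was 0.834 per 100 bp, so that each of the 7 peaks was richer in CpG than the genome, the Postn peak by the least.

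Each gene was examined over its annotated length and 10 kb on each side, which is called the locus. The 10 loci spanned 486067 bp, of which 286067 bp lay within the genes, and held 427 peaks over the 6 libraries. The lists differ in length and threshold. They hold between 130408 (liver) and 217025 (MEFs) peaks, cover between 3.15% (shSuz12) and 7.83% (MEFs) of the nuclear genome, and the lists of ESCs and liver begin at a score of 80, those of MEFs and brain at 30, that of shGFP at 50.02 and that of shSuz12 at 30.34. The score is the value of the peak caller MACS, 10 times the negative log10 of the p-value, and it cannot be compared between libraries. The share of a locus under peaks was therefore divided by the share of the genome under peaks in the same library. This relative coverage is 1 where a locus carries as much as the genome on average, and it does not remove the difference in threshold.

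MEFs carried peaks at all 10 loci, and most of the genes were more densely covered in MEFs than in the other cell types. The loci held 136 peaks in MEFs, 80 in ESCs, 59 in brain, 30 in liver, 65 in shGFP and 57 in shSuz12. Peaks covered 29.7% of the loci in MEFs, 18.03% in ESCs, 14.5% in brain, 13.4% in liver, 12.6% in shGFP and 7.09% in shSuz12. Over the loci of all protein-coding genes these shares were 11.0, 12.4, 12.8, 13.2, 8.06 and 5.54%, so that MEFs held the largest share at the 10 loci and a smaller one than ESCs, brain and liver over all genes. At a score of at least 80 in every list the bp covered were nearly equal, with 87883 bp in MEFs and 87646 bp in ESCs. This score removes peaks from the MEF list but none from the ESC list. The median relative coverage of the 10 loci was 3.13 in MEFs, 1.32 in ESCs, 1.1 in brain, 0.115 in liver, 2.16 in shGFP and 1.32 in shSuz12. The medians over all protein-coding genes were 0.82, 1.47, 1.12, 1.2, 1.31 and 1.38, respectively. Among the 4 cell types, relative coverage was highest in MEFs for 7 of the 10 genes, against 12.5% of the protein-coding genes with a peak in any of them. The 7 were Prrx1, Snai2, Pdgfra, Pdgfrb, Postn, Vim and Acta2, although Pdgfrb had 5.38 in MEFs and 5.37 in ESCs. With a score of at least 80, Snai2 had no peak in MEFs, and Acta2 in MEFs had 0.934 times the relative coverage in brain. The highest value was in ESCs for Twist1 and Thy1 and in liver for Fn1. Among all 6 libraries it was in MEFs for 6 of the 10 genes, against 9.74%, as Pdgfrb was then highest in shGFP. Of the MEF peaks at the loci, 59 of 136 had a score of at least 80, the level at which the ESC and liver lists begin, against 34.1% of all MEF peaks.

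**Figure D1:**
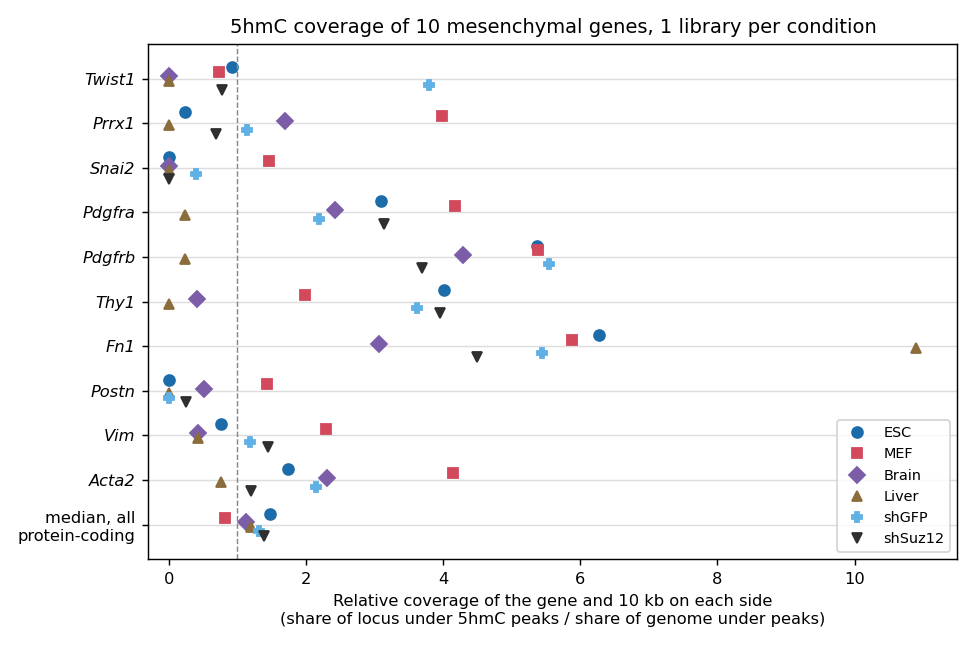
Relative 5hmC coverage (horizontal axis, no unit: share of the locus under peaks divided by the share of the genome under peaks) of each of the 10 loci in the 6 libraries, 1 point per library, with the median of all protein-coding genes in the bottom line and the genomic mean of 1 as a dashed line. Prrx1, Vim and Acta2 in MEFs lie to the right of the other 5 libraries, and Fn1 in liver, at 10.9, is the highest point.

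Of the transcription factors, Prrx1 carried peaks along the gene from 6589 bp after its start site in MEFs, whereas Twist1 and Snai2 carried few peaks in any library. The loci of Twist1 and Snai2 are shorter, 22147 and 23544 bp against 88595 bp for Prrx1. Relative coverage, which allows for length, reached 3.8 for Twist1 in shGFP and 1.46 for Snai2 in MEFs. Prrx1 (chromosome 1, 165175247 to 165243841, minus strand) is a homeobox gene of limb and craniofacial mesenchyme. Its locus held 27 peaks in MEFs, 12 in brain, 2 in ESCs, none in liver, 4 in shGFP and 3 in shSuz12. In MEFs they covered 27581 bp, in brain 11015 bp, in ESCs 1413 bp, in shGFP 4620 bp and in shSuz12 1922 bp, and the relative coverage was 3.98, 1.69, 0.236, 1.14 and 0.689, respectively. In MEFs 37.8% of the gene lay under peaks, against 2.06% in ESCs and 14.7% in brain. The MEF peaks within the gene ran on to 68440 bp, with the highest score, 314.54, at 13433 to 16171 bp and the next, 252.32, at 29983 to 32295 bp. Of the 27 MEF peaks 19 met no peak of another library, whereas each of the 12 brain peaks met one. The share of all MEF peaks without such a match is not given, and the MEF list begins at a score of 30, that of ESCs at 80. The 3 ESC libraries carried their peaks nearer to the start site. ESCs had peaks at 4378 to 5091 bp (score 113.53) and 5475 to 6175 bp (score 205.03). shGFP had 1 peak over both places, from 4367 to 6182 bp with a score of 201.15, and shSuz12 had peaks at 4537 to 5472 bp (score 144.74) and 5801 to 6180 bp (score 45.31). Upstream, shGFP and shSuz12 shared a peak at -1541 to -667 bp and -1450 to -842 bp that ESCs did not have, and brain had one at -2198 to -1291 bp. Peaks at 1272 to 2435 and 3324 to 4092 bp were present in shGFP alone.

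Twist1 (chromosome 12, 34642536 to 34644682, plus strand), a basic helix-loop-helix factor of mesoderm and neural crest, had no peak within the gene or within 1 kb of its start in any library. The peaks of the 3 ESC libraries lay downstream of the gene, and those of MEFs upstream. The ESC peak had a score of 273.03 and ran from 4567 to 5932 bp, downstream of the gene. MEFs had 2 upstream peaks, at -4054 to -3437 bp and -2941 to -2301 bp, with scores of 37.28 and 31.28, which lie below the lowest score of the ESC and liver lists and met no peak of another library. In shGFP 3 peaks downstream of the gene, at 4487 to 5796, 5898 to 6622 and 8644 to 10448 bp, had scores of 133.49, 73.68 and 266.71. shSuz12 had 1, at 5846 to 6389 bp (score 37.67), and brain and liver had none. Loci without a peak were 5 of the 10 in liver, against 32% of all protein-coding genes, 2 in brain, against 27.8%, and 2 in ESCs, against 22.4%. There was 1 in shGFP, against 24.2%, and 1 in shSuz12, against 23.8%, and none in MEFs, against 24.2%.

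Snai2 (chromosome 16, 14705945 to 14709488, plus strand), a zinc finger repressor of E-cadherin, had peaks in MEFs and shGFP only. The 4 MEF peaks lay at -2082 to -1415, 2987 to 3661, 5913 to 6575 and 7892 to 8577 bp, with scores from 31.49 to 41.01. The shGFP peak lay in an exon at 894 to 1324 bp and had a score of 86.81. None of these 5 peaks met a peak of another library. With a score of at least 80 the MEF library had no peak at Twist1 or Snai2, so that the MEF coverage of these transcription factors rests on peaks of low score.

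Both PDGF receptor genes were densely covered in MEFs, ESCs and brain and carried 1 peak each in liver. Pdgfra (chromosome 5, 75548316 to 75594229, plus strand) encodes the alpha receptor, a tyrosine kinase of mesenchymal progenitors and of oligodendrocyte precursors in brain. It had 20 peaks over 21511 bp in MEFs, 12 over 13777 bp in ESCs, 10 over 11700 bp in brain, 1 over 966 bp in liver, 8 over 6584 bp in shGFP and 12 over 6522 bp in shSuz12. The relative coverage was 4.17 in MEFs, 3.1 in ESCs, 2.42 in brain, 0.229 in liver, 2.19 in shGFP and 3.14 in shSuz12. In MEFs 70.9% of its exon sequence and 34.7% of its intron sequence lay under peaks, and in ESCs 39.4 and 22.7%. The MEF peak with the highest score, 368.37, lay at 10320 to 11828 bp, the place of the ESC peak with the highest score, 562.37, at 10210 to 11790 bp. At the end of the gene a MEF peak of 3818 bp, from 42916 to 46734 bp with a score of 249.33, met peaks of 4 other libraries. Between 10 and 30 kb from the start site shGFP had no peak, whereas untreated ESCs and shSuz12 both had several there.

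Pdgfrb (chromosome 18, 61204804 to 61244715, plus strand) encodes the beta receptor, a kinase of pericytes and fibroblasts. Its relative coverage was 5.38 in MEFs, 5.37 in ESCs, 4.29 in brain, 0.23 in liver, 5.54 in shGFP and 3.69 in shSuz12. MEFs had 14 peaks over 25250 bp, ESCs 18 over 21696 bp, brain 14 over 18879 bp, liver 1 over 880 bp, shGFP 17 over 15153 bp and shSuz12 11 over 6961 bp. MEFs and ESCs were thus alike in relative coverage, and both covered an intron and the upstream flank. The widest MEF peak covered 6203 bp of an intron, from 8651 to 14854 bp, with a score of 899.18, above 99.9% of the MEF list. Within the same stretch ESCs had a peak at 10394 to 12391 bp with 1073.91, the second highest ESC score of the locus after 1515.56 at -4266 to -1262 bp, and the next was 1047.88 at 18460 to 20344 bp. Around the start site an ESC peak ran from -1205 to 2086 bp, scored 934.36, so that all 2000 bp around the start site were covered. MEF peaks ran from -4809 to -2051 and from -2005 to -187 bp and stopped short of the start site. The single liver peak, at -2253 to -1373 bp with a score of 116.66, met a peak of each of the other 5 libraries. The neighbouring gene Cdx1 reaches into this locus, so peaks in the flank may belong to either gene.

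**Figure D2:**
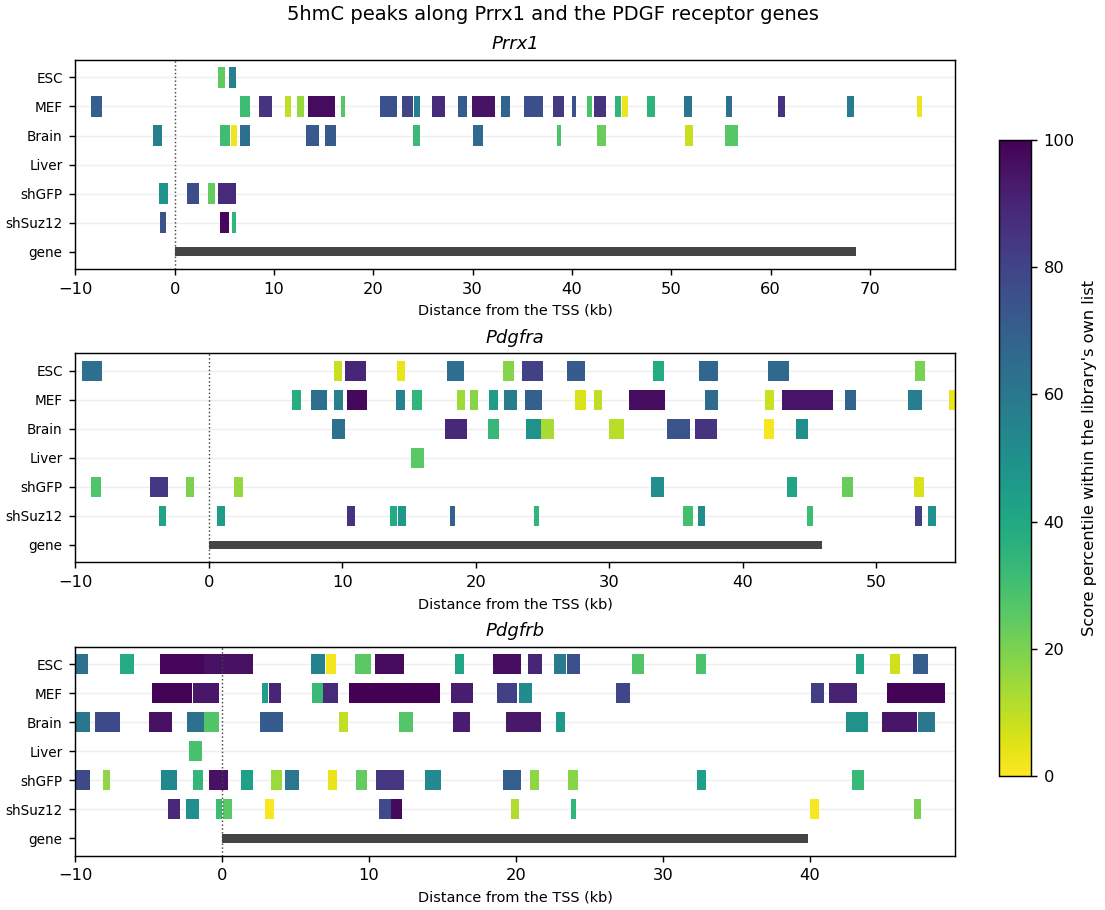
Peaks along Prrx1, Pdgfra and Pdgfrb in the 6 libraries, by distance from the transcription start site (TSS) in kb, with the gene as a grey bar, its start as a dotted line and each box coloured by the percentile of the peak's score within its own list. Along Prrx1 the 27 MEF peaks stand against 2 in ESCs and none in liver. Along Pdgfrb relative coverage with all peaks is alike in ESCs and MEFs (5.37 and 5.38), but the start site is covered in ESCs and not in MEFs.

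Thy1 was covered most in the ESC libraries. It encodes a small glycoprotein anchored in the membrane of fibroblasts, T cells and neurons (chromosome 9, 43851467 to 43856662, plus strand). The relative coverage was 4.01 in ESCs, 1.98 in MEFs, 0.405 in brain, 0 in liver, 3.62 in shGFP and 3.96 in shSuz12. ESCs had 6 peaks over 6813 bp, MEFs 3 over 3914 bp, brain 1 over 748 bp, shGFP 4 over 4169 bp and shSuz12 5 over 3141 bp. A peak about 9 kb upstream was present in each of these 5 libraries, from -10197 to -8938 bp in ESCs and from -9841 to -8921 bp in MEFs. At the end of the gene ESCs had a peak at 4564 to 6693 bp (score 811.67) and MEFs one at 4598 to 6181 bp (score 174.54). The shGFP peak at 718 to 1528 bp and the shSuz12 peak at 303 to 1009 bp reached into the 1 kb after the start site, and ESCs had a peak at 1129 to 1709 bp.

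Of the matrix genes, Fn1 was covered in every library and most in liver, and Postn was covered mainly in MEFs. Fn1 (chromosome 1, 71632094 to 71699774, minus strand) encodes fibronectin, which fibroblasts deposit in the matrix and hepatocytes secrete into plasma. The bp covered were 60861 in liver, 40396 in MEFs, 37101 in ESCs, 19775 in brain, 21777 in shGFP and 12400 in shSuz12. The relative coverage was 10.9 in liver, 6.27 in ESCs, 5.88 in MEFs, 5.44 in shGFP, 4.49 in shSuz12 and 3.07 in brain. In liver 78.9% of the gene lay under 5hmC peaks, with 85.1% of its exon sequence and 78.1% of its intron sequence, and 99.3% of protein-coding genes had a lower coverage of the locus. The 3 highest scores of liver at the 10 loci belonged to Fn1, with 2449.34 at 21624 to 28249 bp, 2106.19 at 38660 to 45535 bp and 1896.25 at 8219 to 13303 bp. Fn1 held 25 of the 30 liver peaks at the 10 loci. The neighbouring genes Atic and Apol7d reach into the flanks. The MEF coverage was made of 43 peaks with a median score of 57.57 and a highest score of 417.83. Fn1 and Pdgfrb were the only loci of the 10 at which peaks met a peak of all 5 other libraries.

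Postn (chromosome 3, 54165031 to 54194961, plus strand) encodes periostin, a matrix protein of periosteum, tendon and heart valves. It had 6 peaks over 5597 bp in MEFs, 2 over 1859 bp in brain, 1 over 387 bp in shSuz12 and none in ESCs, liver and shGFP. The relative coverage was 1.43 in MEFs, 0.507 in brain and 0.246 in shSuz12. Most of the MEF coverage lay outside the gene. The highest score, 314.71, belonged to the peak at 39454 to 41021 bp, downstream of the gene, whose centre is shown above, and the next, 80.68, to another downstream peak at 36619 to 38066 bp. The upstream MEF peak at -3557 to -2101 bp (score 71.82) met the brain peak at -3056 to -1985 bp (score 40.05). Within the gene MEFs had peaks at 13533 to 14343 bp and 18759 to 19672 bp, with scores of 40.5 and 51.52, which no other library had.

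With all peaks of the lists, both cytoskeletal genes were covered most in MEFs. Vim (chromosome 2, 13495554 to 13504453, plus strand) encodes vimentin, the intermediate filament of mesenchymal cells. The relative coverage was 2.29 in MEFs, 0.764 in ESCs, 0.43 in brain, 0.427 in liver, 1.18 in shGFP and 1.44 in shSuz12. MEFs had 6 peaks over 5172 bp, ESCs 2 over 1490 bp, brain 1 over 911 bp, liver 1 over 788 bp, shGFP 2 over 1556 bp and shSuz12 2 over 1312 bp. A peak in the middle of the gene, over the exon shown above, was present in all libraries but liver. It lay at 4207 to 5253 bp in MEFs (score 253.5), 4346 to 5218 bp in ESCs (233.82), 4151 to 5062 bp in brain (47.77), 4320 to 5304 bp in shGFP (172.74) and 4324 to 5023 bp in shSuz12 (38.71). The single liver peak lay at 1654 to 2442 bp (score 99.86) and met the MEF peak at 1698 to 2425 bp (score 76.81). Upstream, MEFs alone had peaks at -2388 to -1522 bp (score 99.9) and -1308 to -737 bp (score 33.18).

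Acta2 (chromosome 19, 34315580 to 34329826, minus strand) encodes the smooth muscle actin of smooth muscle cells and myofibroblasts. The relative coverage was 4.14 in MEFs, 1.73 in ESCs, 2.3 in brain, 0.753 in liver, 2.14 in shGFP and 1.2 in shSuz12. MEFs had 11 peaks over 11099 bp, ESCs 5 over 3991 bp, brain 4 over 5789 bp, liver 2 over 1649 bp, shGFP 3 over 3343 bp and shSuz12 3 over 1295 bp. With a score of at least 80, 6781 bp were left in MEFs and 4732 bp in brain. The relative coverage in MEFs was then 0.934 times that in brain. In MEFs 49.0% of the gene and 81.2% of its exon sequence lay under peaks. A peak over the start site was present in 4 libraries, at -247 to 1590 bp in MEFs (score 389.95), -468 to 224 bp in ESCs (103.64), -360 to 777 bp in brain (98.26) and -304 to 1310 bp in shGFP (309.23). It was not listed in liver and shSuz12. Of the 11 MEF peaks 6 met no other library, among them peaks at 2475 to 3131 bp (score 149.47) and at -10936 to -9996 bp (score 294.75). This count too has no share of all MEF peaks beside it. The neighbouring gene Stambpl1 reaches into the flank.

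**Figure D3:**
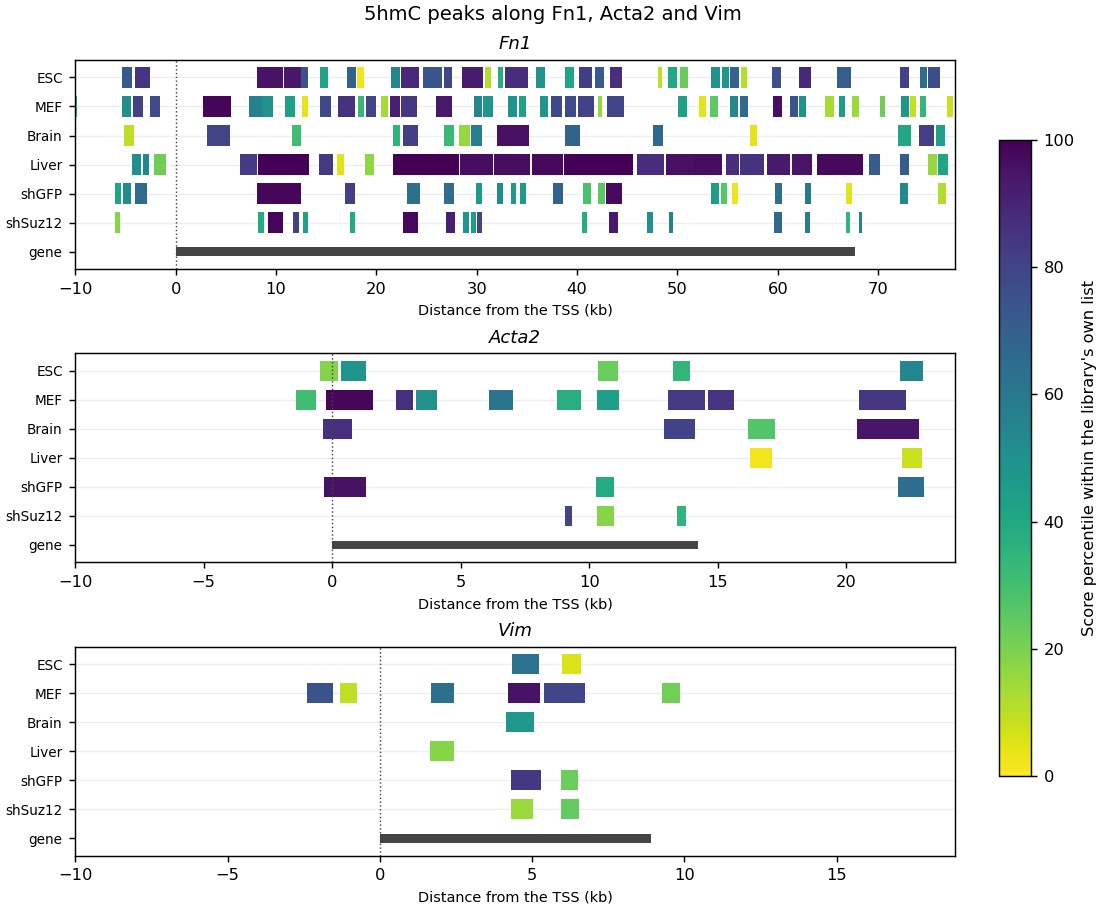
Peaks along Fn1, Acta2 and Vim in the 6 libraries, by distance from the TSS in kb, with the gene as a grey bar, its start as a dotted line and each box coloured by the percentile of the peak's score within its own list. The liver peaks form a nearly unbroken band along Fn1, 78.9% of the gene, whereas Acta2 has 11 peaks in MEFs and 2, both downstream of the gene, in liver.

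Around the start sites at most 5 of the 10 genes carried peaks in any library. Gene bodies made up 286067 of the 486067 bp of the loci. They held 105000 of the 144465 bp covered in MEFs and 64799 of the 87646 bp covered in ESCs. At Twist1, Snai2, Thy1 and Postn most of the MEF coverage lay outside the gene. Peaks lay within 1 kb of the start site of 3 genes in MEFs (Pdgfrb, Vim and Acta2), against 30.1% of all protein-coding genes. In ESCs there were 2 (Pdgfrb and Acta2), against 31.9%, and in brain also 2, of the same genes, against 20%. Liver had 1, Fn1, where 42 bp were covered, against 29.4%. In shGFP there were 5 (Prrx1, Snai2, Pdgfrb, Thy1 and Acta2), against 27.1%, and in shSuz12 4 (Prrx1, Pdgfra, Pdgfrb and Thy1), against 21.4%. Twist1 and Postn had no peak there in any library. Within the gene bodies, by contrast, peaks covered 36.7% of the 10 genes in MEFs and 11.9% of all protein-coding genes. The same shares were 22.7 and 11.7% in ESCs, 16.5 and 14.0% in brain, 19.3 and 12.9% in liver, 13.8 and 7.5% in shGFP and 9.1 and 5.29% in shSuz12. These shares are sums in which long genes weigh most, and in liver Fn1 held 53419 of the 55173 bp. The median share per gene was 35.0% for the 10 genes and 4.43% for all genes in MEFs. In liver these medians were 0.0 and 4.44%. The flanks of the 10 genes also carried more in MEFs than those of all genes, with 17.3 against 8.18% in the 10 kb upstream and 22.2 against 9.8% in the 10 kb downstream. In liver the flanks carried less, with 3.67 against 11.9% upstream and 6.3 against 15.9% downstream.

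**Figure D4:**
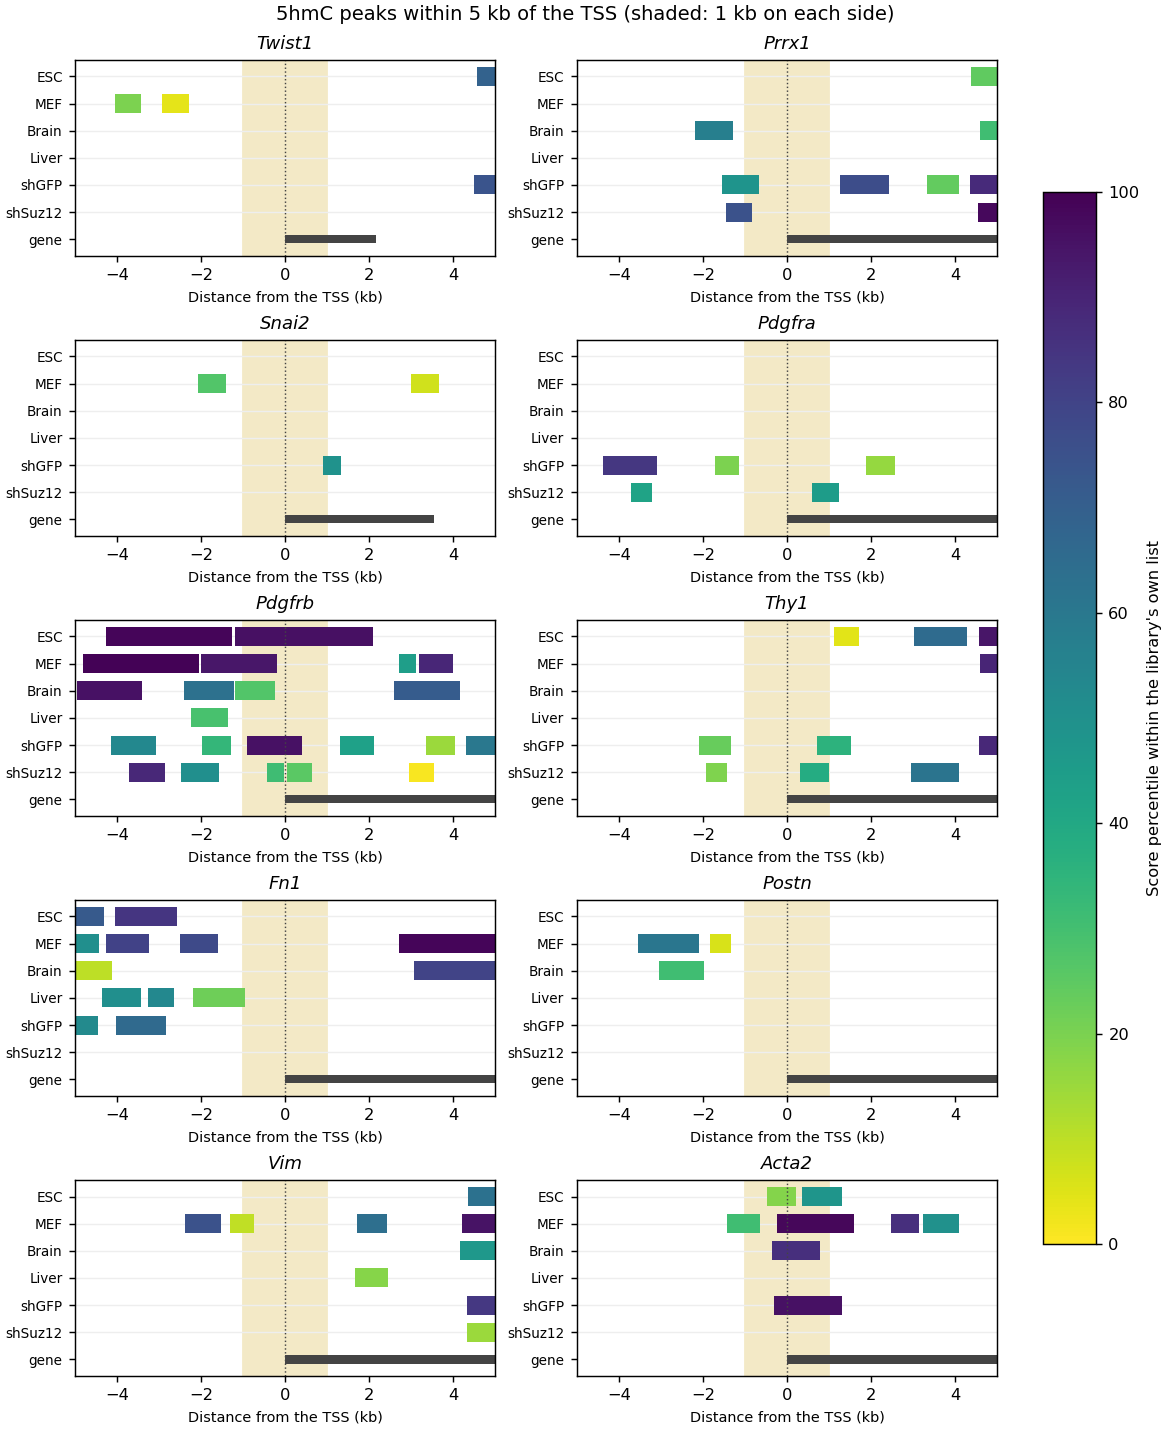
Peaks within 5 kb of the TSS of each of the 10 genes in the 6 libraries (horizontal axis in kb), with the 1 kb on each side shaded, the gene as a grey bar and each box coloured by the percentile of the peak's score within its own list. Only Pdgfrb and Acta2 have boxes over the dotted start line in ESCs, and Twist1 and Postn have none in the shaded zone.

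By the density of CpG at the start site, from -700 to 200 bp, Twist1 and Snai2 have high CpG promoters, Prrx1, Pdgfra, Pdgfrb, Fn1 and Vim intermediate ones, and Thy1, Postn and Acta2 low ones. High CpG promoters make up 34.2% of all protein-coding genes, intermediate ones 24.9% and low ones 40.9%. The genes with high CpG promoters were covered least by peaks in MEFs at a score of at least 80, and the other classes each held genes of high and of low coverage. Within the loci, the mean CpG density of the peaks was 2.03 per 100 bp in ESCs, 1.54 in MEFs, 1.83 in brain, 1.61 in liver, 2.26 in shGFP and 2.53 in shSuz12, against 1.27 over the loci as a whole. Over all peaks of the lists these densities were 1.85, 1.54, 1.55, 1.47, 1.96 and 2.0, so that the MEF peaks at the 10 loci had the density of MEF peaks in general.

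The comparison of MEFs with ESCs addresses how the mark differs between differentiated and pluripotent cells. A gene was counted where the relative coverage of its locus differed at least 2-fold and at least 500 bp were covered in the higher library. Of the 10 genes, 5 were higher in MEFs, against 15.6% of the 18287 protein-coding genes that could be compared, and 1 was lower, against 45.6%. Prrx1 was 16.8-fold higher in MEFs, Vim 2.99-fold and Acta2 2.4-fold, while Snai2 and Postn were listed at 0 in ESCs. Thy1 was 2.02-fold higher in ESCs. Pdgfra, Pdgfrb, Fn1 and Twist1 differed by less than 2-fold. With peaks of a score of at least 80 in both libraries, Prrx1 was 23.4-fold, Vim 3.84-fold and Acta2 2.98-fold higher in MEFs, and Postn was still listed at 0 in ESCs. At this score Snai2 had no peak in either library, Twist1 was listed at 0 in MEFs, and Thy1 differed by 1.01-fold. The share of genes higher in MEFs was then 11.6% and of those lower 57.2%.

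Against the tissues the direction was the same. Compared with brain, 6 of the 10 genes were higher in MEFs, against 17.3% of genes, and none was lower, against 29.6%. Vim was 5.32-fold, Thy1 4.9-fold, Postn 2.82-fold and Prrx1 2.35-fold higher, and Twist1 and Snai2 were listed at 0 in brain. With a score of at least 80 there were also 6 (Prrx1, Pdgfra, Pdgfrb, Thy1, Postn and Vim), against 34%, and none was lower, against 36.9%. Compared with liver, 9 were higher in MEFs, against 25.7% of genes, and none was lower, against 48.4%. Pdgfrb was 23.4-fold, Pdgfra 18.2-fold, Acta2 5.49-fold and Vim 5.36-fold higher, and the other 5 were listed at 0 in liver. With a score of at least 80 there were 7, all but Twist1, Snai2 and Fn1, against 18.9%, and none was lower, against 57.7%. Fn1, the exception, was 1.85-fold higher in liver. The 3 comparisons share the MEF library and are not independent of each other.

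The MEF peaks at the loci were partly at the positions of peaks in the other libraries. Of the 136 MEF peaks, 44.9% overlapped an ESC peak by at least 1 bp (95% interval 36.3 to 53.6%), against 38.7% of all MEF peaks. Brain peaks met 33.8% of them (25.9 to 42.4%), against 39.4%, and liver peaks 30.1% (22.6 to 38.6%), against 29.7%. In the other direction, 78.8% of the 80 ESC peaks met a MEF peak (68.2 to 87.1%), against 48.0% of all ESC peaks. Of the 59 brain peaks 74.6% did (61.6 to 85.0%), against 50.5%, and of the 30 liver peaks 90.0% (73.5 to 97.9%), against 45.3%. Most ESC and brain peaks of these genes therefore lay where MEFs also had one. So did most of the 30 liver peaks, 25 of which lay at Fn1. Of the MEF peaks 46 met no other library, 19 of them at Prrx1. The share of all MEF peaks that met no other library is not given, so this count and those for single genes have no background. The intervals are exact binomial ones and cover counting error only, as peaks of 1 gene are not independent. The share met depends on the MEF coverage of the loci, which was higher than elsewhere.

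The Suz12 knockdown addresses whether the mark depends on Polycomb repressive complex 2. Relative coverage does not show a change shared by the whole genome, of which peaks covered 4.56% in shGFP and 3.15% in shSuz12. Of the 8 genes with at least 500 bp covered in either library, none was higher in shSuz12, against 11.9% of genes, and 1 was lower, against 12.1%. The gene was Twist1, with a relative coverage of 3.8 in shGFP and 0.779 in shSuz12, a 4.87-fold difference. Without division by the genome share 4 were lower (Twist1, Prrx1, Pdgfrb and Acta2), and the same 4 at a fold of 1.5. The shares of all genes at these settings are not given, so these counts cannot be set against a background. Without division, the smaller genome share under peaks in shSuz12 by itself moves loci towards lower. In untreated ESCs Twist1 had 0.913, and shGFP was 4.16-fold higher than untreated ESCs. Between shGFP and untreated ESCs, neither of which had a hairpin against Suz12, 2 of 8 genes were higher in shGFP (Twist1 and Prrx1, the latter 4.83-fold), against 8.16%, and none was lower, against 11.8%. With a score of at least 80, where 42.9% of all genes were lower in shSuz12 and 15% higher, Twist1, Vim and Acta2 were lower and listed at 0 in shSuz12. Twist1 then had 1365 bp covered in untreated ESCs and 3113 bp in shGFP, and none in shSuz12. At the start sites, the Acta2 and Snai2 peaks of shGFP were not listed in shSuz12, and the Prrx1 peak upstream of the start was present in both. The Pdgfrb peak at -919 to 400 bp in shGFP (score 316.57) was matched by peaks at -448 to -32 bp and 32 to 636 bp in shSuz12. Their scores were 44.78 and 43.04, which cannot be compared with that in shGFP. In the other direction, Pdgfra had a peak at 606 to 1232 bp in shSuz12, and shGFP had none within 1 kb of its start. Thy1 had 697 bp covered within 1 kb of the start in shSuz12 and 282 bp in shGFP.

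Further mesenchymal genes differed in both directions between MEFs and ESCs. Of a list of 40 further genes of the mesenchymal program, 17 were at least 2-fold higher in MEFs and 8 at least 2-fold lower, beside 15.6 and 45.6% of all protein-coding genes. Their median relative coverage was 2.47 in MEFs and 1.78 in ESCs, and that of all protein-coding genes was 0.82 and 1.47. With a score of at least 80 the counts were 16 and 8, beside 11.6 and 57.2% of all protein-coding genes at that score. All 4 genes of fibroblast surface and motility were higher in MEFs, as were 5 of 8 matrix genes, 3 of 5 genes of TGF-beta ligands and receptors, 2 of 4 PDGF ligand genes and 3 of 9 transcription factor genes, but none of 6 smooth muscle genes and none of 4 integrin genes. Lower in MEFs were 3 of the 9 transcription factor genes, 2 smooth muscle genes and 1 each of the PDGF ligands, the TGF-beta genes and the integrins. Genes listed at 0 in 1 library have no fold and were not ranked. Dcn, Lum and Pdgfd were listed at 0 in ESCs, with relative coverage of 1.56, 0.403 and 0.241 in MEFs. Tcf21 was listed at 0 in MEFs and had 2.8 in ESCs. Of the genes with a fold, the 8 with the largest were the following. Pdgfc, a ligand of the alpha receptor, was 12.4-fold higher in MEFs (1.44 against 0.116), and Cdh2, which encodes N-cadherin, 11.3-fold (2.12 against 0.188). Fap, a surface protease of fibroblasts, was 10.5-fold higher (1.1 against 0.105), Tnc, which encodes the matrix protein tenascin C, 9.51-fold (2.92 against 0.307), Ddr2, a collagen receptor, 7.65-fold (2.54 against 0.332) and Tgfbr1, a TGF-beta receptor, 5.76-fold (0.723 against 0.126). Cnn1, which encodes the smooth muscle protein calponin, was 15.5-fold higher in ESCs (3.78 against 0.244), and Foxc2, a forkhead factor of mesenchyme, 5.73-fold (5.9 against 1.03). The lower library had only 659 bp covered at Fap and 693 bp at Tgfbr1 (ESCs), and 579 bp at Cnn1 (MEFs). These folds therefore rest on little coverage.

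Of 8 epithelial genes none was higher in MEFs and 5 were lower, and their median relative coverage was 1.81 in MEFs and 4.07 in ESCs. Krt18 and Krt8, the keratins of simple epithelia, were 3.51-fold and 2.49-fold higher in ESCs, Esrp1, an epithelial splicing factor, 2.43-fold, and Cdh1, which encodes E-cadherin, 2.01-fold, and Cldn7, a tight junction gene, was listed at 0 in MEFs. Of all protein-coding genes, 45.6% were lower in MEFs. The direction differed against the tissues. Compared with brain, 4 of the 8 epithelial genes were higher in MEFs and 1 was lower, against 17.3 and 29.6% of all genes. Their median relative coverage was 1.81 in MEFs and 0.588 in brain. Compared with liver, 3 were higher and 3 lower, against 25.7 and 48.4%. Between shSuz12 and shGFP the list of 40 had 5 genes higher and 5 lower of 39 that could be compared, beside 11.9 and 12.1% of all genes, and the epithelial list had none of 8 in either direction.

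**Figure D5:**
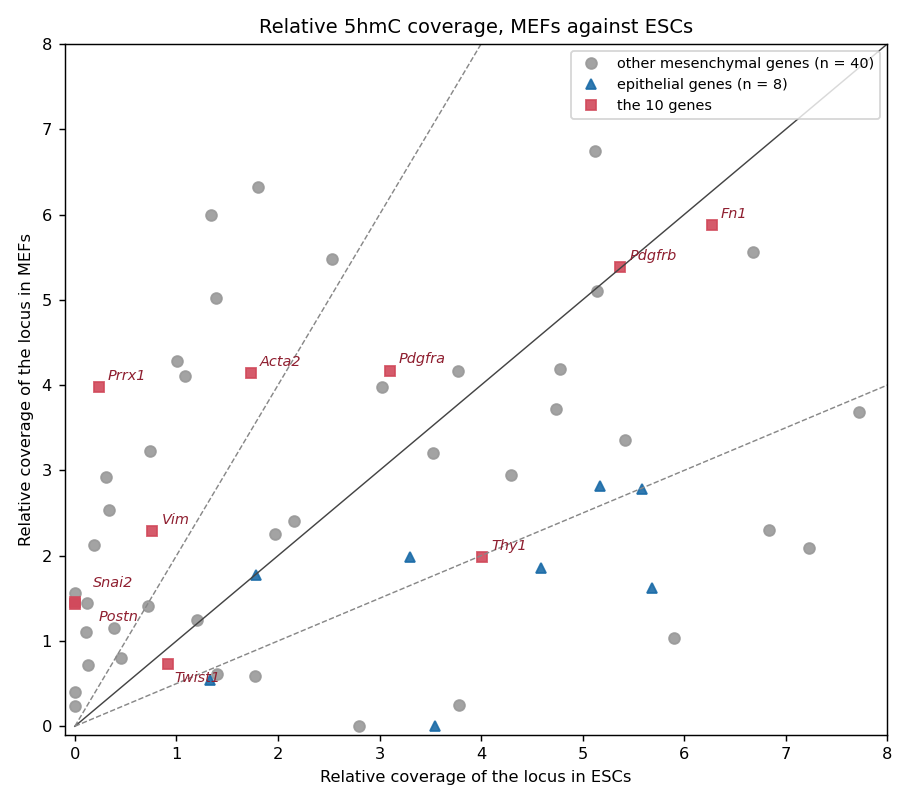
Relative 5hmC coverage of the locus in MEFs (vertical axis, no unit) against ESCs (horizontal axis, no unit), 1 point per gene, for the 10 genes, the 40 other mesenchymal genes and the 8 epithelial genes, with equality as a solid line and 2-fold differences as dashed lines. Prrx1, Vim, Acta2, Snai2 and Postn lie above the upper dashed line, Thy1 at the lower one, and no epithelial gene lies above the upper one.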

How the data were processed

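GLIB-Seq libraries of 6 conditions were used, and the 2 RNA-Seq samples were not analysed here. According to the submitters' processing notes, CASAVA 1.8, Bowtie 0.12.7 and MACS 1.4.1 were used, and the study's methods state that reads were mapped to mm9, keeping unique hits, and that redundant reads were collapsed. Peak calling was done separately for every library. As the score, the authors deposited the MACS value, 10 times the negative log10 of the p-value. The MACS threshold and the control are not given in the sources used here. Read counts are not part of the lists, so the depth is unknown.

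Genes, exons and start sites (the 5′ end of the gene) came from GENCODE M1 on NCBIM37, the assembly of mm9. A locus is the gene and 10 kb on each side. Relative coverage is the share of a locus under peaks divided by that of the nuclear genome. A difference of at least 2-fold with at least 500 bp covered in the higher library was counted, and no fold was given against 0. Promoter classes follow the highest ratio of observed to expected CpG in windows of 500 bp from -700 to 200 bp (high: at least 0.75 with at least 55% GC, low: under 0.48). The 95% intervals of shares are exact (Clopper-Pearson) and reflect counting error alone. No test was possible, as every condition is represented by 1 library.

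The 10 genes, the lists of 40 mesenchymal and 8 epithelial genes and the rules were chosen with earlier results of these data known. From each list the genes past the 2-fold difference between MEFs and ESCs were named, at most 8, largest fold first. Sequences are 160 bases at the centre of the peak with the highest score, 1 per gene, without chromosome 18 and without UTRs. The alternatives were a score of at least 80 in every list, the upper 50% of each list by score, flanks of 5 kb, start sites of 2 kb, 500 bp or any transcript, coverage not divided by the genome share, a fold of 1.5, a minimum of 1 bp and an overlap of 50% of both peaks. The software was matplotlib 3.10.9, scipy 1.17.1, pandas 2.3.3 and numpy 2.4.6 under Python 3.11.15, and the steps were tested on simulated peaks.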

Additional observations from a re-analysis of the deposited data

How the results depend on the processing

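Of 122 values recomputed under alternatives, 84 stayed within the limits of the comparison and 38 moved. The counts of genes higher in MEFs than in ESCs (4 to 5), brain (5 to 9) and liver (7 to 9) stayed within 1.5 times of the reported counts. The cause of the shifts below was not tested. For these alternatives, shares of all protein-coding genes are given only for the 2-fold comparisons at a score of at least 80 above. The other counts below therefore have no background beside them. For genes with a peak near the start site, the upper 50% of each list gave 1 in ESCs, 1 in brain, 0 in liver, 2 in shGFP and 1 in shSuz12. A score of at least 80 gave 1 in brain and 0 in shSuz12, 2 kb on each side gave 6 in MEFs, 3 in liver and 4 in brain, and 500 bp gave 0 in liver, 2 in shGFP and 2 in shSuz12. The bp covered at the 10 loci fell, at a score of at least 80, to 87883 in MEFs, 8281 in shSuz12 and 24050 in brain, and in the upper 50% to 44103 in brain, 37872 in shGFP and 16967 in shSuz12. The number of genes lower in MEFs than in ESCs was 0 with coverage not divided by the genome share, and lower in MEFs than in liver was 1 in the upper 50% and 1 at a fold of 1.5. Genes higher in shSuz12 than in shGFP numbered 1 at a minimum of 1 bp. Genes lower in shSuz12 numbered 3 at a score of at least 80, 3 in the upper 50%, 4 without division, 4 at a fold of 1.5 and 2 at a minimum of 1 bp, against 1 as reported. Genes lower in shGFP than in ESCs numbered 1 at a score of at least 80, 1 in the upper 50% and 1 without division, against 0. The share of MEF peaks that met another library, with an overlap of 50% of both peaks, was 29.4% for ESCs, 19.9% for brain, 5.15% for liver, 18.4% for shGFP and 6.62% for shSuz12, and at a score of at least 80 it was 15.3% for brain and 11.9% for shSuz12.

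The alternative of a score of at least 80 for the lists of other genes was chosen after seeing the data. The lists differ in their lowest score and the depth is unknown, so a peak missing from a list is not shown to be absent from the cells. No paired analysis was possible because there is 1 library per condition.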
